A study of Mus musculus with 15 samples.

Results

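Ccn1, Ccn2, Ankrd1, Ankrd2, Amotl2 and Csrp3 are genes that answer to the transcriptional coactivator YAP or to stretch of muscle, and their RNA was measured in skeletal muscle of 15 mice aged 2 months and labelled male, 1 of which had Xist RNA at odds with that label. The genes were taken by name from 2 deposited tables joined by gene identifier, and make 6 of 55536 genes in all. There were 5 controls labelled wild type, 5 mice labelled PdgfrB Knock Out (knockout) and 5 labelled PdgfrB D489V (D489V). The series describes both alleles as specific to myogenin, a regulator of muscle differentiation, with the knockout lacking the receptor and D489V carrying a constitutively active form. Any loss or activation is thus meant for cells that have expressed myogenin, and Pdgfrb in the other cells of the tissue was not measured apart. The labels used here name no muscle, strain, litter or Cre status of the controls. Where nothing says more about the mice, p-values measure only the spread between these samples.

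YAP and its relative TAZ (gene Wwtr1) enter the nucleus when the Hippo kinases are inactive, for example in cells under tension, and bind DNA through TEAD proteins. Ccn1 and Ccn2 encode secreted matricellular proteins, and both are widely used as readouts of YAP activity. Amotl2 encodes an angiomotin-like scaffold that is a YAP target and also holds YAP in the cytoplasm. Ankrd1 and Ankrd2 encode ankyrin repeat proteins that bind titin in the I band of the sarcomere, and Csrp3 encodes the muscle LIM protein of the Z disc. Ankrd2 and Csrp3 are known to be more abundant in slow than in fast fibres.

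The promoters are shown because a TEAD motif was found in some of them and not in others. RefSeq windows on GRCm38.p6, from 250 bases before to 50 bases after a start site, were found for 5 of the 6 genes, all except Ccn2. The motif searched was GGAATG on both strands, whose reverse complement is CATTCC, and it is in capitals in the 3 windows that hold it, written 5′ to 3′ on the strand of the gene.
Ccn1, chr3:145649936-145650235, minus strand: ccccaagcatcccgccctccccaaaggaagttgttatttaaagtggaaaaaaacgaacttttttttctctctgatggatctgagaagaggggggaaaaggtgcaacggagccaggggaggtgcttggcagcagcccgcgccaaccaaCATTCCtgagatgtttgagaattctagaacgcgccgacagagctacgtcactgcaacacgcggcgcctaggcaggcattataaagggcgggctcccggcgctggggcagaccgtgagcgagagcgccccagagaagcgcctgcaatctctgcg
Amotl2, chr9:102717554-102717853, plus strand: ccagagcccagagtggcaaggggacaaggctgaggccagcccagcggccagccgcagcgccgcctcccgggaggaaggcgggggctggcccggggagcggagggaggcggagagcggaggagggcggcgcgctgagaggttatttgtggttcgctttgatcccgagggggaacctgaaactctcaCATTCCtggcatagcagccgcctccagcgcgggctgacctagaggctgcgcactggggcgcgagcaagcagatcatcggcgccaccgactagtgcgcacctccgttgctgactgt
Ankrd1, chr19:36119795-36120094, minus strand: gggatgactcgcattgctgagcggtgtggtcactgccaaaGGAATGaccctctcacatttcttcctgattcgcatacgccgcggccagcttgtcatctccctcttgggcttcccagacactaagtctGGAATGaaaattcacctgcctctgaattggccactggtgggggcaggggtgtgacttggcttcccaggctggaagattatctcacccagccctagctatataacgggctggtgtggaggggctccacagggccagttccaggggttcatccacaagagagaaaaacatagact
In Ccn1 the motif began 103 bases before the start, on the minus strand of the window. In Amotl2 it began 65 bases before the start, also on the minus strand of the window. Ankrd1 held 2 copies on the plus strand of the window, 210 and 123 bases before the start. The windows of Amotl2 and Ankrd1 lay wholly inside the gene spans given below. Their RefSeq starts were thus downstream of the outermost annotated starts, and their motifs lay inside the annotated genes. The windows of Ankrd2 (1 start) and Csrp3 (2 starts) did not hold these letters. Of 32851 windows of the same length, 14.7% held the motif and 1.36% held 2 or more. The CArG box, the motif of serum response factor, was in no window of the 5 genes and in 1.63% of all windows. A match is a description of the letters, and binding was not measured. Ccn2 has no window and cannot be placed, and a relation of the motif to the group differences was not tested.

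The values are the authors' normalized counts, rounded to whole numbers, with sums of 29815559 to 36489777 per sample. From the spacing of low whole numbers, 25700000 to 33700000 reads were estimated to be assigned to genes in controls, 26600000 to 37100000 in knockout and 33100000 to 39600000 in D489V. All 8 skeletal fibre markers, such as Acta1 and Ckm, were read in every group. Of 7 heart markers 4 were above 0 in controls, 6 in knockout and 4 in D489V, and Nppa was at 0 in all samples. Summed counts of the heart markers were 636 to 1585, 424 to 2470 and 882 to 1329 in the same order. Those of the skeletal fibre markers were 5049014 to 6287678, 4670587 to 6686706 and 5155328 to 5984562. Pdgfrb averaged 1754 ± 72.9 (SD, n = 5) in controls, 1308 ± 266 (SD, n = 5) in knockout and 906 ± 106 (SD, n = 5) in D489V, so the samples labelled with the active allele had the least. Xist was at 3165 normalized counts in knockout replicate 3, whose label says male, and at 101 or fewer in the other samples, so the 6 genes were also compared without it. In knockout against D489V the log2 differences were then -1.85 for Ccn1, -1.10 for Amotl2, -1.16 for Ankrd1, -0.28 for Ccn2, -0.01 for Ankrd2 and 0.39 for Csrp3. In knockout against control they were -0.88 for Ccn1, -0.57 for Amotl2, -0.41 for Ankrd1, 0.40 for Ccn2, 0.27 for Ankrd2 and 0.20 for Csrp3. In a piece of tissue, fewer cells of a type and less RNA per cell cannot be told apart.

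Each pair of groups was compared with limma on log2(value + 1) over all genes that reached 10 normalized counts in 5 or more of its 10 samples. A gene is named as called where its Benjamini-Hochberg adjusted p was below 0.05. The 6 genes were selected on the normalized counts of these samples as well as on their known roles, with the group differences in view. Ankrd1 had passed in D489V against control and Ccn1 in knockout against D489V. The values of the 6 genes in these comparisons are therefore a description, given without p-values, and knockout against control shares its controls with one of them.

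Ccn1 was highest in D489V and lowest in knockout, and no sample crossed into a neighbouring group. The gene (ENSMUSG00000028195, GRCm38 chromosome 3, 145646976 to 145649981, minus strand, protein-coding) had normalized counts of 1731, 1949, 1027, 919 and 1072 in controls 1 to 5. In knockout it had 724, 735, 842, 639 and 686, and in D489V 2304, 2397, 3130, 2475 and 2302. Every knockout sample lay below every control, every D489V sample lay above every control, and controls 1 and 2 lay apart from controls 3 to 5. The group means were 1340 ± 467 in controls, 725 ± 75.3 in knockout and 2522 ± 348 in D489V (SD, n = 5 each). From knockout to D489V the level was 3.46-fold different, with knockout lower by a log2 difference of -1.79 (SE 0.105, 95% interval -2.02 to -1.56). Against control the log2 change was 0.97 (SE 0.202) in D489V and -0.82 (SE 0.199) in knockout, where limma gave an adjusted p of 0.243.

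Amotl2 followed the same order, with a smaller SD relative to its mean than Ccn1 in controls and D489V and a larger one in knockout. The gene (ENSMUSG00000032531, GRCm38 chromosome 9, 102716672 to 102733418, plus strand, protein-coding) had 1068, 931, 1190, 942 and 909 normalized counts in controls 1 to 5. In knockout it had 793, 798, 811, 616 and 527, and in D489V 1426, 1511, 1371, 1489 and 1446. The 3 groups did not overlap, and the D489V samples were the most alike, with an SD of 3.79% of their mean of 1449. Unlike Ccn1, Amotl2 in controls 1 and 2 lay within the values of controls 3 to 5. The log2 change was 0.53 (SE 0.0895) in D489V against control, a ratio of 1.44 in level, and -0.52 (SE 0.137, limma adjusted p 0.276) in knockout against control. Knockout against D489V gave -1.05 (SE 0.121, 95% interval -1.31 to -0.79).

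Ankrd1 was higher in D489V than in any other sample, while knockout samples fell on both sides of the controls. The gene (ENSMUSG00000024803, GRCm38 chromosome 19, 36111961 to 36120099, minus strand, protein-coding) had 262, 338, 341, 358 and 334 normalized counts in controls 1 to 5. In D489V it had 537, 521, 547, 497 and 628, and in knockout 449, 349, 384, 147 and 152. Knockout replicates 4 and 5 lay below every control and replicates 1 and 3 above every control, so the SD was 46.8% of the mean in knockout against 11.4% in controls and 9.08% in D489V. The same 2 knockout samples were the lowest in Amotl2. The log2 change of Ankrd1 was 0.74 (SE 0.108, 1.67-fold) in D489V against control and -0.28 (SE 0.303, limma adjusted p 0.645) in knockout against control. Knockout against D489V gave -1.03 (SE 0.291), with -0.81 without knockout replicate 4 and -0.83 without knockout replicate 5. The call was lost without either of these samples and without D489V replicate 1, 2 or 3. In D489V against control it was lost when any one sample other than D489V replicate 3 was left out, with log2 changes of 0.67 to 0.78.

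**Figure D1:**
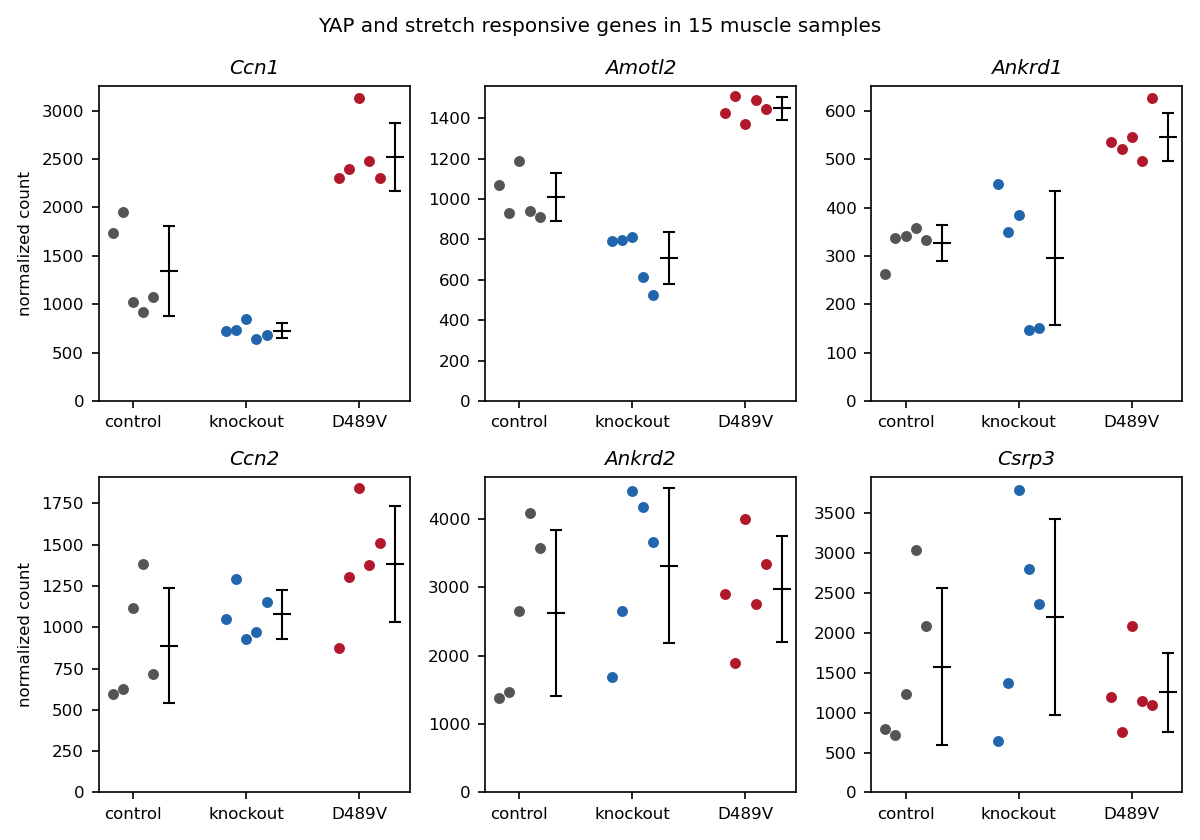
Normalized counts (vertical axes, from 0) of the 6 genes in control, knockout and D489V muscle, 1 panel per gene, with points for the 5 samples of each group in order of replicate number and black bars for mean ± SD. D489V points lie above all other points for Ccn1, Amotl2 and Ankrd1, and the groups overlap for Ccn2, Ankrd2 and Csrp3.

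Ccn2, the nearest relative of Ccn1 in this list, overlapped between all groups. The gene (ENSMUSG00000019997, GRCm38 chromosome 10, 24595442 to 24598683, plus strand, protein-coding) had 596, 628, 1119, 1386 and 718 normalized counts in controls 1 to 5. In knockout it had 1048, 1293, 932, 969 and 1155, and in D489V 877, 1305, 1842, 1380 and 1510. Controls 1 and 2, the highest controls for Ccn1, were the lowest for Ccn2. The means were 889 ± 348 in controls, 1079 ± 147 in knockout and 1383 ± 350 in D489V (SD, n = 5 each). The log2 change against control was 0.68 (SE 0.255) in D489V and 0.35 (SE 0.221, limma adjusted p 0.432) in knockout. The interval of knockout against D489V, -0.70 to 0.04, spanned 0.

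Ankrd2 and Csrp3 varied more within groups than between them. Ankrd2 (ENSMUSG00000025172, GRCm38 chromosome 19, 42036000 to 42045110, plus strand, protein-coding) had 1375, 1463, 2649, 4084 and 3571 normalized counts in controls 1 to 5. In knockout it had 1684, 2657, 4405, 4183 and 3667, and in D489V 2897, 1898, 4002, 2763 and 3341. Csrp3 (ENSMUSG00000030470, GRCm38 chromosome 7, 48830398 to 48848033, minus strand, protein-coding) had 800, 714, 1232, 3044 and 2090 in controls 1 to 5. In knockout it had 642, 1371, 3787, 2805 and 2366, and in D489V 1201, 752, 2087, 1140 and 1095. The same 6 samples were highest in both genes, namely controls 4 and 5, knockout replicates 3 to 5 and D489V replicate 3. For Csrp3 these held 2087 to 3787 and the other 9 samples 642 to 1371, and for Ankrd2 they held 3571 to 4405 against 1375 to 3341. The SD of Csrp3 was 62.5% of its mean in controls, 55.9% in knockout and 39.6% in D489V. Knockout against control, the log2 change was 0.39 (SE 0.346, limma adjusted p 0.573) for Ankrd2 and 0.46 (SE 0.501, limma adjusted p 0.651) for Csrp3. D489V against control gave 0.28 (SE 0.312) and -0.19 (SE 0.389), and knockout against D489V gave 0.11 (SE 0.26) and 0.65 (SE 0.415). The intervals of all 6 differences spanned 0, the widest from -0.63 to 1.56 for Csrp3 in knockout against control.

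Those 6 samples also held the most RNA of slow fibre genes. The slow fibre level, the mean log2 value of 10 genes such as Myh7 (slow myosin) and Tnnt1 (slow troponin T), was 13.1 to 14.29 in them and 9.92 to 12.65 in the other 9. The list also holds Myh2, the myosin of IIa fibres, so its level is not that of slow fibres alone. By summed counts the list ran from 57335 to 351479 in controls, 63218 to 367874 in knockout and 77356 to 304688 in D489V, with no gene at 0 in all samples. With the slow fibre level as a covariate, Csrp3 was 0.75 higher in knockout than in D489V on the log2 scale and passed the threshold. That is a change of call between 2 fits for a gene whose values are a description here.

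**Figure D2:**
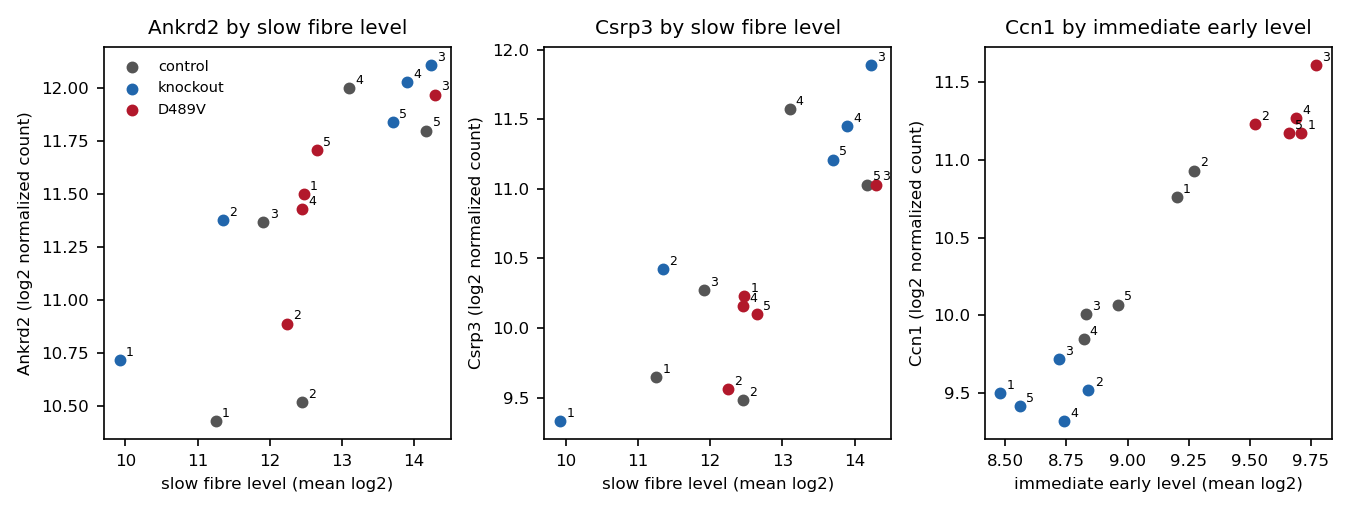
Log2 normalized counts (vertical axes) of Ankrd2 and Csrp3 against the slow fibre level and of Ccn1 against the immediate early level (horizontal axes, mean log2 value of each list), 1 point per sample, coloured by group and numbered by replicate. The 6 samples with a slow fibre level of 13.1 or more are the highest in Csrp3, and Ccn1 is highest in the D489V samples, which have the highest immediate early levels.

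The calls among the 6 genes are given beside those over all genes. In knockout against control 0 of 6 were called by limma, beside 0.00656% of 15234 genes, and 2 of 6 had an unadjusted p under 0.05, beside 15.1% of all genes. In D489V against control 1 of 6 was called, Ankrd1, against 0.0587% of 15339 genes (0.0261% higher and 0.0326% lower in D489V). In knockout against D489V 3 of 6 were called, Ccn1, Amotl2 and Ankrd1, against 20.8% of 15299 genes (10.5% higher and 10.3% lower in knockout). Groups did not overlap for 2 of 6 genes lower in knockout against control, where 1.25% of all genes did so, 0.991% were higher without overlap and both directions made 2.24%. They did not overlap for 3 of 6 genes higher in D489V than in control, against 1.1% of all genes, with 1.06% lower and 2.16% in both directions. For the same 3 genes they did not overlap lower in knockout than in D489V, against 6.7% of all genes, with 7.22% higher and 13.9% in both directions. Nothing is read from these counts, since the genes were chosen with them known. The median log2 change of the 6 genes was 0.03 in knockout and 0.60 in D489V against the shared controls, and -0.68 between the mutants, beside medians over all genes of 0.011, 0.002 and 0.

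**Figure D3:**
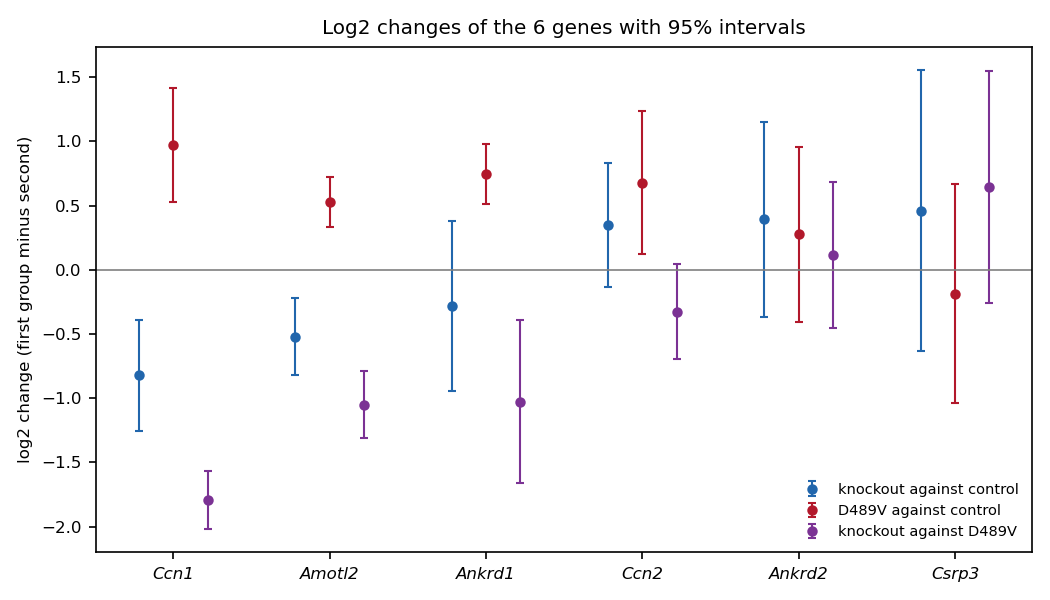
Log2 changes (vertical axis, first group minus second) of the 6 genes (horizontal axis) in 3 comparisons, with points for the limma estimate and bars for its 95% interval. For Ccn1, Amotl2 and Ankrd1 the D489V points lie above 0 and the knockout points below it, and the bars of Ankrd2 and Csrp3 cross 0 in every comparison.

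Per kilobase of the longest coding transcript, Ankrd2 had the highest mean of the 6 genes in each group and Csrp3 the next highest. In controls the level per kilobase was 2310 ± 1071 for Ankrd2, 1753 ± 1096 for Csrp3, 663 ± 231 for Ccn1, 357 ± 140 for Ccn2, 233 ± 27.5 for Amotl2 and 162 ± 18.4 for Ankrd1 (SD, n = 5 each). Ankrd2 and Csrp3 lay within each other's spread, and the spreads of Csrp3 and Ccn1 met in controls and in D489V (1396 ± 553 and 1249 ± 172). The order of the pair of CCN genes differed between groups. Ccn1 was above Ccn2 per kilobase in 4 of 5 controls and 5 of 5 D489V samples, and below it in 4 of 5 knockout samples. The means of Ccn1 and Ccn2 were 1249 ± 172 and 555 ± 140 in D489V, but 359 ± 37.3 and 433 ± 59 in knockout, where the spreads of the 2 genes met.

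How the genes vary from mouse to mouse was examined after removing the group means, which the choice of genes had used. Of 45 relations computed, 15 between the 6 genes and 30 with the levels of 5 marker lists, 4 had an adjusted p under 0.05 by permutation within groups. These were Ankrd2 with Csrp3, each of these genes with the slow fibre level, and Csrp3 with the adipocyte level. Since the samples fall into sets of 6 and 9 in Csrp3, no pooled correlation is given for them. For the correlations within these sets group means were not removed and permutation ran across groups, so group differences remain in them. Within the 6 samples Ankrd2 and Csrp3 had r = 0.81 and rho = 0.77 (exact permutation p 0.0583 and 0.103, adjusted 0.233 and 0.288). Within the 9 samples they had r = 0.85 and rho = 0.58 (exact permutation p 0.00937 and 0.108, adjusted 0.075 and 0.288). Without the 2 samples farthest from the median, r was 0.88 and 0.86. With the slow fibre level, Csrp3 had r = -0.24 within the 6 and 0.40 within the 9 (exact permutation p 0.647 and 0.294, adjusted 0.74 and 0.587). Ankrd2 had r = 0.01 and 0.46 with that level (exact permutation p 0.985 and 0.221, adjusted 0.985 and 0.587). Its rho was 0.09 and 0.73 (adjusted 0.919 and 0.249). Csrp3 and the adipocyte level had r = -0.36 and 0.18 (exact permutation p 0.485 and 0.631, adjusted 0.74 in both). None of these relations was past the threshold within the sets. The sets are small and were split by Csrp3 itself, which narrows its range, so they cannot decide whether a relation is absent.

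The order of the groups in Ccn1 was also that of the immediate early genes, which answer to growth factors and stress within minutes and include Fos, Egr1 and Junb. Of 20 listed genes 19 were tested, and 17 were called lower in knockout than in D489V by limma (89.5%, against 20.8% of all genes) and 0 higher. Their median log2 difference was -0.80, beside 0 over all genes. This list and the lists below were chosen with earlier results of these data known, so their shares and adjusted p-values are a description. Fos differed by -1.79 (limma adjusted p 0.00155), Egr1 by -1.65 (limma adjusted p 0.00307) and Junb by -1.31 (limma adjusted p 5.3e-04). Against control no gene of the list was called in either mutant by limma, while 14 of 19 in D489V and 6 of 19 in knockout had an unadjusted p under 0.05, beside 9.43% and 15.1% of all genes. The summed count of the list was 22079 to 27673 in controls, 17149 to 23751 in knockout and 31547 to 39710 in D489V, with no gene at 0 in all samples. Controls 1 and 2, the highest controls for Ccn1, had immediate early levels of 9.2 and 9.27, and controls 3 to 5 had 8.83, 8.82 and 8.96. With group means removed, Ccn1 and this level had r = 0.76 and rho = 0.70 over 15 samples (permutation p 0.0148 and 0.0302, adjusted over the 45 relations 0.0951 and 0.212). Without the 2 samples farthest from the median r was 0.58. For the other members r with this level was -0.01 (Amotl2), -0.11 (Ankrd1), -0.47 (Ccn2), -0.22 (Ankrd2) and -0.10 (Csrp3), none past the threshold. The part of the immediate early genes in the differences of Ccn1 was not tested.

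Of 8 marker lists of other cells, 4 had most of their genes called in the direction of Ccn1, Amotl2 and Ankrd1 between the mutants, where 10.3% of all genes were called lower in knockout. Of 8 endothelial genes such as Pecam1 and Cdh5, 8 were called lower in knockout than in D489V, with summed counts of 9335 to 14700 against 17643 to 21258. The other counts were 6 of 7 adipocyte genes (summed counts 11804 to 20221 against 30187 to 99034), 7 of 8 Schwann cell genes (6370 to 10040 against 12543 to 50639) and 5 of 5 erythrocyte genes (3175 to 8032 against 12454 to 22120). In controls these sums were 15693 to 23385 for endothelial, 7136 to 67358 for adipocyte, 8967 to 14593 for Schwann and 5671 to 8413 for erythrocyte genes. In the other 4 lists most genes were not called lower. Of 7 mural genes 3 were called lower and 1 higher, and 6 had a negative log2 difference (median -0.28). Their summed counts were 20588 to 23092 in knockout and 21907 to 26708 in D489V. The mean log2 level of the mural genes did not overlap between the mutants. It was 10.7 to 10.9 in knockout, 11.05 to 11.25 in D489V and 10.98 to 11.12 in controls. By limma 0 of 7 fibroblast genes were called (36189 to 143532 and 64977 to 99288, 2 with an unadjusted p under 0.05) and 0 of 7 tendon genes (7463 to 26780 and 10940 to 18989, 0 with an unadjusted p under 0.05). Of 6 lymph node genes 4 were tested and 0 called by limma, with 0 at an unadjusted p under 0.05 and a median log2 difference of 1.59, higher in knockout (10 to 3571 and 51 to 180). No marker of these 8 lists was at 0 in all samples. Their part in the differences of Ccn1, Amotl2 and Ankrd1 was not tested.

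Further YAP targets gave few calls. Of 18 further genes from a published YAP and TAZ signature 17 were tested, and 0 were called against control in either mutant by limma, with 3 in knockout and 0 in D489V at an unadjusted p under 0.05, beside 15.1% and 9.43% of all genes. Their median log2 change was 0.06 in knockout and 0.00 in D489V, beside 0.011 and 0.002 over all genes. The most abundant was Ccdc80, a matrix protein gene, at 1320 ± 266 in controls, 1462 ± 372 in knockout and 1368 ± 255 in D489V (SD, n = 5 each). In knockout against D489V 3 of 17 were called (17.6%, against 20.8% of all genes). Igfbp3, an insulin-like growth factor binding protein, was lower in knockout by a log2 difference of -0.78 (limma adjusted p 0.0118). F3, tissue factor, was lower by -0.68 (limma adjusted p 0.00947), and Crim1 was higher by 0.56 (limma adjusted p 0.0299). Among the other CCN genes 3 of 4 were tested and 0 were called by limma in any comparison, nor did any have an unadjusted p under 0.05. Ccn3 held 261 ± 70.2, 209 ± 46 and 288 ± 75.6 normalized counts in controls, knockout and D489V, and Ccn4 143 ± 29.6, 114 ± 59 and 120 ± 44.8 (SD, n = 5 each).

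Genes of the Hippo pathway itself differed in both directions. Of 26 listed genes 25 were tested, and 0 were called against control in either mutant by limma, while 9 in knockout and 2 in D489V had an unadjusted p under 0.05, beside 15.1% and 9.43% of all genes. In knockout against D489V 9 of 25 were called (36%, against 20.8% of all genes), 5 higher and 4 lower, with a median log2 difference of -0.04. Amot, a relative of Amotl2, was higher in knockout by 0.70 (limma adjusted p 0.0207), Stk4, a core Hippo kinase, by 0.61 (limma adjusted p 0.017) and Tead1, a DNA partner of YAP, by 0.50 (limma adjusted p 0.012). Tead3, another DNA partner, was lower in knockout by a log2 difference of -0.51 (limma adjusted p 0.0348), and Vgll4, a TEAD cofactor that competes with YAP, by -0.69 (limma adjusted p 0.0117). In level, Tead1 was 4812 ± 381 in knockout, 4140 ± 859 in controls and 3425 ± 533 in D489V, and Tead3 356 ± 34.4, 430 ± 61.5 and 519 ± 125 (SD, n = 5 each). Amotl1, the most abundant gene of the list, was 13568 ± 785, 10702 ± 2048 and 9677 ± 1340 in the same order.

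The lists for other routes of mechanical response gave shares of calls between 15.4% and 31.2% in knockout against D489V, beside 20.8% of all genes. For serum response factor and its coactivators 3 of 15 genes were called (20%), with Tagln (transgelin) at a log2 difference of -0.72 (limma adjusted p 0.0141), Zyx (zyxin) at -0.49 (limma adjusted p 0.0119) and Vcl (vinculin) at 0.59 (limma adjusted p 0.0266). For sarcomere mechanosensing 6 of 28 were called (21.4%), 5 higher and 1 lower in knockout. Csrp2, a LIM protein gene related to Csrp3, was lower by -0.97 (limma adjusted p 0.014), and Trim55, a titin-binding ubiquitin ligase, was higher by 0.62 (limma adjusted p 0.0201). Xirp2 (an actin-binding protein of muscle junctions), Palld (palladin) and Myoz3 (a calsarcin of the Z disc) were higher by 0.47, 0.45 and 0.44 (limma adjusted p 0.0437, 0.0263 and 0.0414). For integrin adhesion 5 of 16 were called (31.2%), with Itgav (integrin alpha V) at 0.82 (limma adjusted p 0.00445), Tln2 (talin 2) at 0.56 (limma adjusted p 0.00888), Lims1 at 0.46 (limma adjusted p 0.0204) and Itgb1 (integrin beta 1) at 0.45 (limma adjusted p 0.0299). Itga5 (integrin alpha 5) was lower in knockout, at -0.59 (limma adjusted p 0.0113). For denervation and injury 2 of 13 tested genes were called (15.4%), Cdkn1a (a cell cycle inhibitor) at -0.96 (limma adjusted p 0.0188) and Myh3 (embryonic myosin) at -0.84 (limma adjusted p 0.0472). Against control 0 genes of these 4 lists were called by limma in either mutant. At an unadjusted p under 0.05 the counts in knockout were 3, 2, 5 and 3 in the order above, and in D489V 2, 3, 1 and 4, beside 15.1% and 9.43% of all genes.

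**Figure D4:**
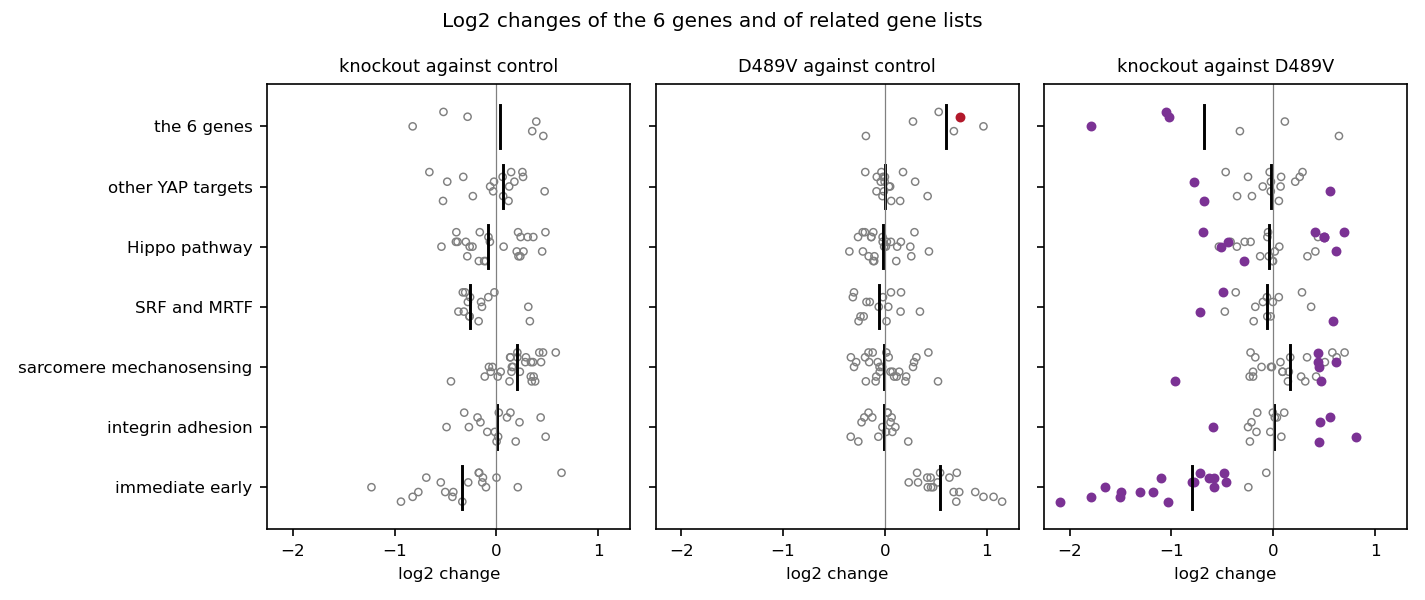
Log2 changes (horizontal axes, same range) of the 6 genes and of 6 gene lists (vertical axis) in 3 comparisons, 1 circle per tested gene, filled where the limma adjusted p is under 0.05, with a black line at each median. Filled circles of the immediate early list all lie below 0 in knockout against D489V, while those of the Hippo pathway list lie on both sides.

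Across all 15 samples, the genes whose order was most like that of each member were found among 12158 genes with a mean of 50 or more, by Spearman's rho. The samples share their groups and normalization, and the highest of so many values is high by selection, so these are descriptions. For Ccn1 they were Slc25a23 (0.954), Plekhg3 (0.946) and Agtr1a (0.939), and for Amotl2 they were Gem (0.949), Apold1 (0.946) and Ercc1 (0.943). For Ankrd1 they were Tmbim1 (0.914), Bri3 (0.904) and Lzts3 (0.882). Ccn2 had the lowest values, with Adcy1 (0.786), Nr4a1 (0.768) and Errfi1 (0.736). For Csrp3 they were Prox1 (0.939), Ankrd2 (0.896) and Gm5532 (0.892), and for Ankrd2 they were Idh2 (0.921), Dhx35 (0.907) and Ldhb (0.904, the first by name of 4 genes tied there). With group means removed, Pearson's r was 0.93 between Csrp3 and Prox1, but 0.31 to 0.50 between Amotl2 and its 3 genes.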

How the data were processed

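RNA of 15 muscle samples was measured after poly(A) enrichment and strand-preserving library preparation, per the labels' protocols. The authors deposited reads per gene after normalization, as whole numbers, which are treated here as a score and not as raw counts. The submitters' processing notes list Trim Galore 0.6.0, cutadapt, FastQC, STAR 2.7.0e, DESeq2 1.26.0 and GRCm38, and the counting tool is not given in the sources used here. Both tables hold 55536 genes and the same values for 5 controls. Median ratios of samples to their geometric mean were 1.0069 to 1.0097, so all samples were compared on one scale. Dates stood in place of 27 gene names in one of the tables, and names, positions and transcript lengths came from GENCODE M21, which matched every identifier. Rounding can merge neighbouring read numbers in 8 samples, whose estimated scaling was under 1, so tests on reads were not run.

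Comparisons of 5 against 5 used limma 3.58.1 in R 4.3.3 (eBayes with trend, two-sided). Correlations used 100000 permutations within groups, or exact permutations within sets of samples. Scripts were tested on simulated data. Python 3.11.15, numpy 2.4.6, pandas 2.3.3, scipy 1.17.1 and matplotlib 3.10.9 were used. The members and lists were chosen with earlier results of these data known. Named were the 6 members, Pdgfrb, the 3 genes most like each member, and of each list at most 5 called genes or, with none called, the 2 most abundant. Of those 2, values are printed for CCN genes, the Hippo list and the first of the YAP targets only. Alternatives changed the pseudocount, filter, scaling, variance model, samples fitted and covariates, added a block, and left out each replicate.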

Additional observations from a re-analysis of the deposited data

Results flagged for a closer look

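In groups of 5 samples, the highest or lowest sample was taken as far when its gap to the nearest other sample was above 0.71 of the group's range. Of 33 groups of values tested, 4 were far, where chance gives about 1 in 20. D489V replicate 3 had log2 Ccn1 of 11.61 where the other 4 replicates of that genotype had 11.17 to 11.27 (0.764 as a share of the range). The same sample was far in the slow fibre level, at 14.29 against 12.24 to 12.65 (0.801), and in the Schwann level, at 11.12 against 9.24 to 9.66 (0.777). Control replicate 1 had log2 Ankrd1 of 8.04 against 8.39 to 8.49 (0.778).

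The changes of the 2 mutants from control differed for 3 of the 6 genes in the direct fit of knockout against D489V. The log2 difference was -1.79 for Ccn1, -1.05 for Amotl2 and -1.03 for Ankrd1. These genes had been listed with such differences in view.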

How the results depend on the processing

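Of 378 values for the 6 genes under alternatives, 350 had the same direction and call, 16 were weaker, 7 stronger and 5 reversed. As a description, since these values chose the genes, the log2 difference of knockout and D489V ran from -1.86 to -1.71 for Ccn1, -1.10 to -0.95 for Amotl2 and -1.21 to -0.81 for Ankrd1. Ankrd1 lost its call in 5 of 21 alternatives there and in 11 of 21 in D489V against control. The reversals were Csrp3 in knockout against control (-0.03) and Ankrd2 in knockout against D489V (-0.10), both with the Hoxd9 level as a covariate, chosen after seeing the data. Csrp3 in D489V against control reversed without control replicate 4 (0.11, range -0.41 to 0.11 over single samples left out). Ankrd2 in knockout against D489V reversed without knockout replicate 3 (-0.01) or D489V replicate 2 (-0.04, range -0.04 to 0.34).

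Genes called in knockout against control, 1 as reported, were 3 with quantile normalization, 3 after rescaling to the upper quartile, 16 with all 15 samples in one fit and 17 with the slow fibre level. Of the 6 genes 0 were called there in every alternative run. In D489V against control, 9 as reported, 19 were called with pseudocount 5, 23 with upper-quartile rescaling, 21 with robust eBayes, 16 with quantile normalization, 4 among genes with a mean from 50 up, 1 with all samples in one fit, 103 with the slow fibre level and 166 with the Hoxd9 level. Of the 6 genes, 0 were then called with all samples in one fit, 2 with the slow fibre level and 3 with the Hoxd9 level. With each replicate left out, knockout against control gave 1 to 7 genes and 0 of the 6. D489V against control gave 2 to 26 genes and 0 to 1 of the 6, and knockout against D489V 1398 to 3686 genes and 2 to 4 of the 6. The 7 came without knockout replicate 2, the 26 without D489V replicate 3, and the 1398 without D489V replicate 1, with 1526 without D489V replicate 2 and 1989 without D489V replicate 3. Relations past the threshold were 4 as reported, 5 by Spearman, 4 with pseudocount 5 and 4 without knockout replicate 3. Why these counts shifted, the cause, was not tested.

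With the replicate number as a block, 0 of the 6 genes were called in D489V against control, where 7 genes passed in all. Deviations of samples sharing a number correlated at -0.21 to 0.24 (knockout, control), -0.40 to 0.39 (D489V, control) and -0.11 to 0.10 (knockout, D489V), and no pairing was taken from the numbers.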

Other observations

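Hoxd9, a gene of limb position chosen here after its values were seen, was highest in the same 6 samples as Ankrd2 and Csrp3. It held 577 to 707 normalized counts in the 6 samples with the highest Csrp3 (controls 4 and 5, knockout replicates 3 to 5 and D489V replicate 3) and 153 to 294 in the other 9. With its log2 level as a covariate, the log2 change of Csrp3 was -0.03 in knockout against control and 0.26 in knockout against D489V, beside 0.46 and 0.65 without it. That of Ccn1 was -1.83 in knockout against D489V, beside -1.79. The part of limb position in these values was not tested.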
